A study of Homo sapiens with 4 samples.

Results

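The genes described here are 9 members of the JAK-STAT pathway and its feedback inhibitors: SOCS1, SOCS2, SOCS3, CISH, STAT3, STAT5A, STAT6, JAK1 and JAK2. They were taken by gene name from the probes of a human whole-genome array and make up 9 of the 25992 gene names on it, read by 10 probes on 19 spots. Total RNA came from human proximal tubular cells (HPTCs) of the lines HK-2 and RPTEC/TERT1 (n = 2, each), and the arrays are called HK-2-1, HK-2-2, RPTEC-1 and RPTEC-2 after the cell line and replicate number of their label. HK-2 cells are adult proximal tubule cells immortalised with papillomavirus genes, and RPTEC/TERT1 cells are renal proximal tubule cells immortalised with telomerase, so each group stands for a single line and not for tubular epithelium at large. All 4 arrays carried RNA from cells that were kept without serum and supplements for 24 h and then exposed for 24 h to IL-1β (10 ng/mL), an inflammatory cytokine, together with empagliflozin (Empa, 500 nM), an inhibitor of the sodium-glucose cotransporter SGLT2. HK-2 cells were grown in keratinocyte serum-free medium with added serum and RPTEC/TERT1 cells in a DMEM and Ham's F-12 mixture, so that line and medium cannot be told apart. Untreated cells and cells given IL-1β alone were not analysed here, and no value below is therefore an effect of IL-1β or of Empa.

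In JAK-STAT signalling, a cytokine bound to its receptor brings together Janus kinases (JAKs), which phosphorylate the receptor and then the STAT proteins that dock there. Phosphorylated STATs pair, enter the nucleus and switch on target genes, among them those of the SOCS family, whose proteins bind receptors or JAKs and shut the signal off. IL-1β itself signals mainly through NF-κB, but it makes tubular cells secrete cytokines such as IL-6 that act through JAKs and STATs.

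CISH is a classical STAT5 target, and its promoter is shown because it was the only promoter entry of these genes with a match to the STAT consensus TTCNNNGAA, which is its own reverse complement, in the 250 bases before the transcription start. RefSeq entries were present for 8 of the 9 genes (16 entries in all, with SOCS2 the exception). The 250 bases before the CISH start, chr3:50611775-50612024 of GRCh38.p14 on the minus strand, are printed 5′ to 3′ with the 4 matches in capitals.
CISH promoter: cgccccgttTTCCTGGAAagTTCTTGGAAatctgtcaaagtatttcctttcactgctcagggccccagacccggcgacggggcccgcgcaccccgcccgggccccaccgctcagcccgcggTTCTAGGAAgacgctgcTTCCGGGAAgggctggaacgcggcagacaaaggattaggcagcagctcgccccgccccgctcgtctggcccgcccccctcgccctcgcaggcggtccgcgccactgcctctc
The matches were centred 237, 226, 125 and 108 bases before the start. Of 35116 RefSeq promoters of the same length, 6.57% held at least 1 match and 0.0142% held at least 4. A match is a run of letters and was not measured as a binding site. STAT3 was the gene with more than 1 probe, and the letters of the probe A_24_P116805, at chr17:40474404-40474463 of GRCh37 on the minus strand, are given because this probe and A_23_P100795, at chr17:40465923-40465982, read separate stretches of the transcript.
STAT3 probe A_24_P116805: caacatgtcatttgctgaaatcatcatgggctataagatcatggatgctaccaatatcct

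Every comparison rests on 4 arrays whose values did not follow their cell line labels. Over 17928 genes, HK-2-1 correlated most closely with RPTEC-2 (Pearson r = 0.980) and HK-2-2 with RPTEC-1 (r = 0.976), whereas the arrays with the same cell line label gave r = 0.865 for HK-2 and r = 0.855 for RPTEC/TERT1. The arrays thus paired across the labels, and whether a label is wrong was not tested. The 2 arrays of each replicate number shared a scan date, and each array lay on a slide of its own. Between 59.2% and 64.9% of spots were well above background, the scanner software's call for a spot brighter than its local background. Of 14 proximal tubule markers, 10, 8, 6 and 10 were well above background on HK-2-1, HK-2-2, RPTEC-1 and RPTEC-2, while CUBN, SLC22A6 and HNF4A were so on no array. The summed level of these markers, in multiples of each array's 75th percentile, was 3.80 and 4.36 on the HK-2 arrays and 3.46 and 4.43 on the RPTEC/TERT1 arrays. ANPEP and SLC3A1, along with the loop of Henle gene SLC12A1, were well above background on HK-2-1 and RPTEC-2 and not on the other 2 arrays. PDZK1 ran the other way under every scaling tried, at -1.34, 1.52, 1.04 and -0.86, and LRP2, GGT1 and MME were higher on HK-2-2 and RPTEC-1 with the scaling used here but not with normexp background correction or in the deposited log2 values. The fibroblast markers DCN and LUM were so only on HK-2-2 and RPTEC-1, with ACTA2 the other way round, and the 8 fibroblast markers summed to 0.525 and 1.99 on the HK-2 arrays and 1.53 and 0.558 on the RPTEC/TERT1 arrays. Of the 9 markers of other kidney epithelium 3 to 4 were well above background on each array, of 5 endothelial markers 1 to 2, and of 7 blood cell markers 3 to 5. The part of these markers in the values of the JAK-STAT genes was not tested.

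All 10 probes of the 9 genes were well above background on all 4 arrays, and none was saturated. Levels are given below as log2 of the processed signal over the 75th percentile of the array, so that 0 is the signal of the spot at that percentile and a step of 1 is a doubling. Of the 8 members measured on all arrays, 7 spanned at least 1 from their lowest to their highest array (52.9% of all genes tested did), with JAK1 the exception.

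**Figure D1:**
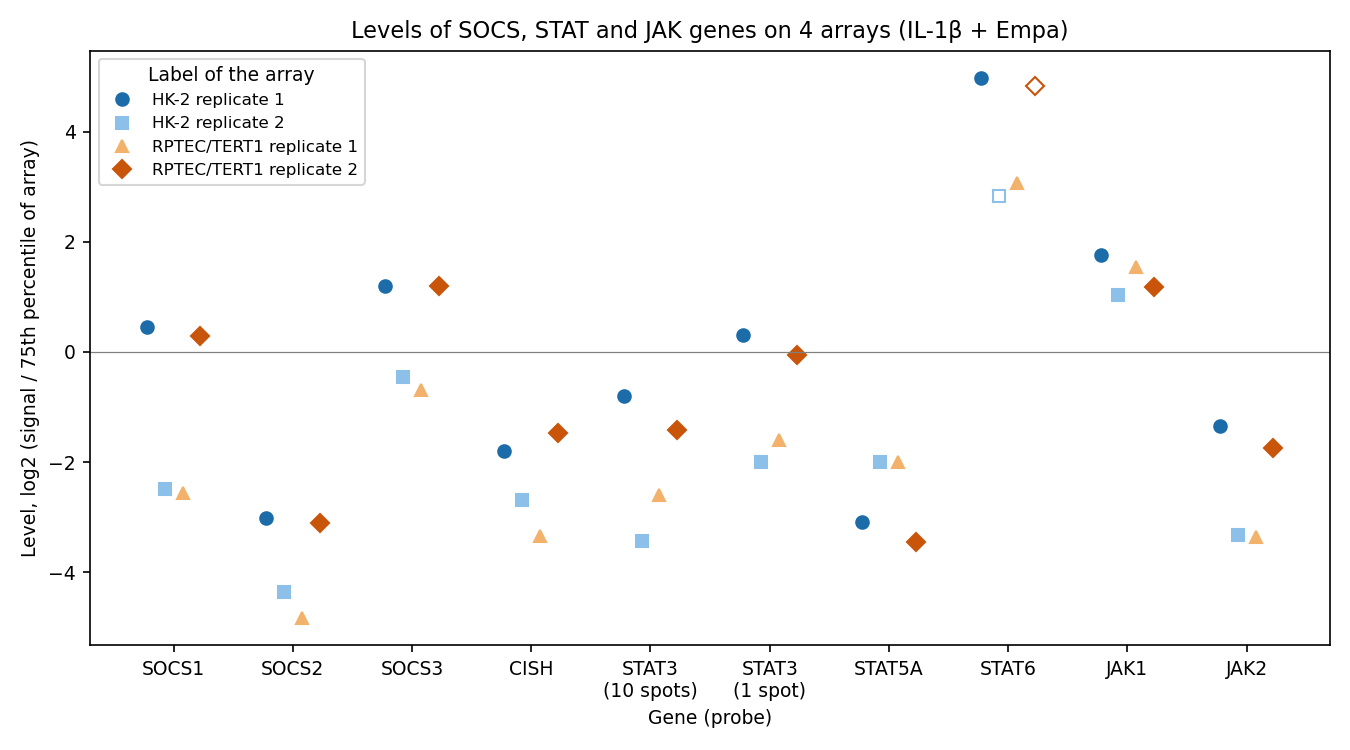
Level of each probe (vertical axis, log2 of signal over the array's 75th percentile) on each array, with the array's label given by colour and shape. Hollow symbols are the STAT6 spots marked as outliers. SOCS1, SOCS2, SOCS3, CISH, STAT3, STAT6 and JAK2 were higher on HK-2-1 and RPTEC-2 than on the other 2 arrays, and STAT5A was lower on them with this scaling but not with normexp background correction or in the deposited log2 values.

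Among the inhibitors, SOCS1, which blocks the kinase domain of JAKs and restrains interferon signalling, varied most. Its level was 0.46 on HK-2-1, -2.49 on HK-2-2, -2.56 on RPTEC-1 and 0.29 on RPTEC-2 (probe at chr16:11348384-11348443). HK-2-1 and RPTEC-2 were thus close together and well above the other 2 arrays, and the labelled lines overlapped. In RNA of whole cultures, fewer cells that express a gene and less RNA per cell cannot be told apart. Within replicate 1, SOCS1 was 8.09-fold higher in HK-2 than in RPTEC/TERT1, and within replicate 2 it was 6.89-fold lower. Its range of 3.02 was wider than that of 92.3% of the 16473 genes tested. Before scaling, its processed signals were 541, 133, 83.0 and 525 in the same order.

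SOCS3, the inhibitor that binds gp130 and limits the IL-6 response, followed the same arrays over a smaller range. Its level was 1.20 and -0.46 on HK-2-1 and HK-2-2, and -0.69 and 1.19 on RPTEC-1 and RPTEC-2 (probe at chr17:76353127-76353186). The labelled lines overlapped, with HK-2-1 and RPTEC-2 differing by 1.00-fold. In HK-2 relative to RPTEC/TERT1, SOCS3 was 3.69-fold higher within replicate 1 and 3.13-fold lower within replicate 2.

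SOCS2, a regulator of growth hormone signalling, was dim. Its level was -3.01 and -4.35 on the HK-2 arrays and -4.83 and -3.10 on the RPTEC/TERT1 arrays (probe at chr12:93969799-93969858), again highest on HK-2-1 and RPTEC-2 and with overlapping lines. The signal was 3.57 to 8.18 times the lowest signal called well above background on the same array, and at most 2 of 153 negative control spots of an array were brighter, so its differences are less secure than those of SOCS1.

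CISH, which competes with STAT5 for docking sites on receptors and whose promoter is printed above, had levels of -1.80 and -2.68 on the HK-2 arrays and -3.34 and -1.47 on the RPTEC/TERT1 arrays (probe at chr3:50644023-50644082 of GRCh37). The order of the arrays was that of the other inhibitors except that RPTEC-2 stood highest, whereas HK-2-1 did with normexp background correction and in the deposited log2 values. The 2 HK-2 arrays had CISH signals of 113 and 117 before scaling, on arrays whose 75th percentiles were 393 and 748. After scaling they differed by 1.84-fold. The CISH levels on HK-2-1 and HK-2-2 were -0.22 and -2.15 with normexp, and -0.68 and -2.04 in the deposited log2 values. The cause of this difference was not tested. The RPTEC/TERT1 arrays differed by 3.65-fold after scaling, with signals of 48.3 and 155.

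Of the STATs, STAT3, the transducer of IL-6 family cytokines, could be read on both of its probes. Averaged over them, its level was -0.24 and -2.72 on the HK-2 arrays and -2.10 and -0.73 on the RPTEC/TERT1 arrays. A_23_P100795 is printed 10 times on each array and gave -0.80 ± 0.14, -3.43 ± 0.11, -2.59 ± 0.13 and -1.41 ± 0.060 (SD of 10 spots) on HK-2-1, HK-2-2, RPTEC-1 and RPTEC-2. A_24_P116805 gave 0.31, -2.00, -1.60 and -0.049 on its single spot. The probes put the 4 arrays in the same order, and the steps between neighbouring arrays on A_23_P100795 were several times the SD of its spots. The spots share the RNA of an array, so their SD is a technical error and not that of replicates.

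**Figure D2:**
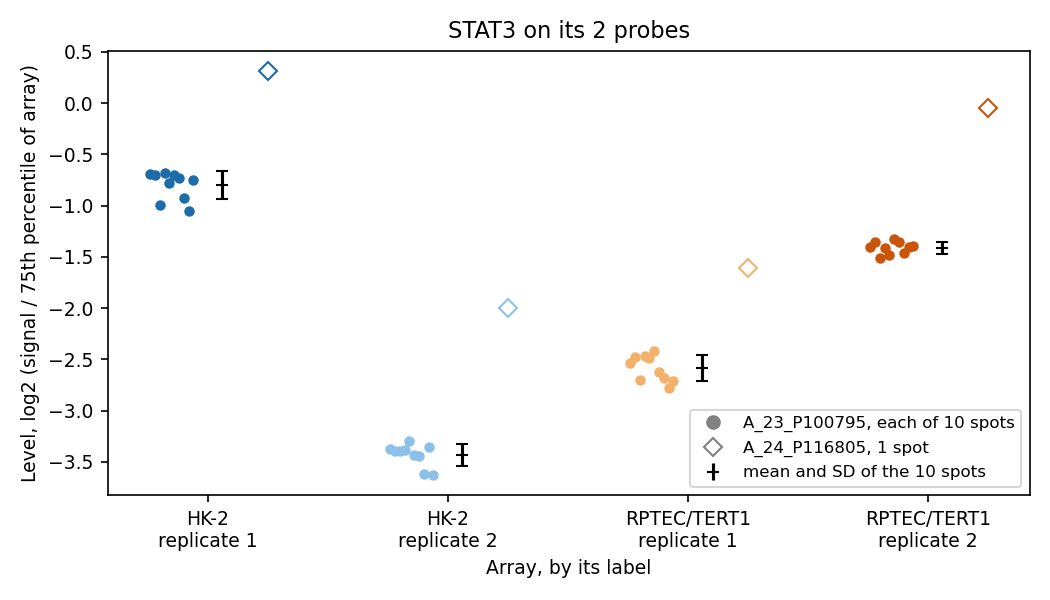
STAT3 level (vertical axis, log2 of signal over the array's 75th percentile) on each array. Filled circles are the 10 spots of A_23_P100795 with their mean and SD beside them, and the hollow diamond is the single spot of A_24_P116805. Both probes were highest on HK-2-1 and lowest on HK-2-2.

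STAT5A, a transducer of prolactin, growth hormone and several interleukins, was the member that ran the other way. Its level was -3.09 and -2.00 on the HK-2 arrays and -2.00 and -3.45 on the RPTEC/TERT1 arrays (probe at chr17:40463483-40463542). It was thus lower on HK-2-1 and RPTEC-2, but with normexp background correction the 4 levels became -0.28, -1.87, -1.71 and -2.37, and in the deposited log2 values -0.90, -1.79, -1.63 and -2.34, with HK-2-1 now the highest. The place of HK-2-1 among the STAT5A levels therefore depended on the processing. STAT5A was dim on HK-2-1 and RPTEC-2, at 4.88 and 6.43 times the lowest signal called well above background on the same array. On HK-2-1, 1 of 153 negative control spots was brighter. Its probe lies 2380 bases from the nearer STAT3 probe, on the opposite strand.

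STAT6, which carries the IL-4 and IL-13 signal, was bright, but its single spot was marked as a non-uniformity outlier on HK-2-2 and RPTEC-2 and was left out there. The remaining levels were 4.98 on HK-2-1 and 3.08 on RPTEC-1 (probe at chr12:57489651-57489710). With the marked spots kept, HK-2-2 read 2.83 and RPTEC-2 read 4.82. The same 2 arrays as for SOCS1 were then high, and the labelled lines overlapped, but these values rest on spots that the scanner software rejected.

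JAK2, the kinase used by growth hormone, erythropoietin and interferon-γ receptors, had levels of -1.34 and -3.32 on the HK-2 arrays and -3.37 and -1.74 on the RPTEC/TERT1 arrays (probe at chr9:5127355-5127414). It was highest on HK-2-1 and RPTEC-2, like the inhibitors, and was 4.07-fold higher in HK-2 within replicate 1 and 2.99-fold lower within replicate 2. JAK1, the kinase shared by gp130, interferon and common γ chain receptors, had levels of 1.75 and 1.03 on the HK-2 arrays and 1.55 and 1.18 on the RPTEC/TERT1 arrays (probe at chr1:65299773-65299832). Its range of 0.72 was wider than that of 29.9% of genes tested, and it differed between the labelled lines by 1.15-fold within replicate 1 and by 1.11-fold, in the opposite direction, within replicate 2. With normexp background correction the JAK1 levels became 0.52, 0.74, 1.28 and 0.86 on HK-2-1, HK-2-2, RPTEC-1 and RPTEC-2, so that JAK1 was then lower in HK-2 within both replicates, as it was in the deposited log2 values, and the opposite directions were lost.

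The comparison the labels offer is HK-2 against RPTEC/TERT1, both under IL-1β and Empa. limma with Benjamini-Hochberg adjustment, fitted over 16473 genes well above background on at least 2 arrays, called 0% of all genes and 0 of the 8 members it could test (STAT6 lacked a value on 2 arrays). Without adjustment 0.14% of all genes (23) had p under 0.05, and none of them was a member. SOCS1 averaged -1.02 ± 2.09 in HK-2 and -1.13 ± 2.01 in RPTEC/TERT1 (SD, n = 2, each), a difference of 0.12 with a 95% interval from -3.85 to 4.08 and an adjusted p of 1 from limma. SOCS3 differed by 0.12 (-2.46 to 2.70), CISH by 0.16 (-2.06 to 2.38), SOCS2 by 0.28 (-2.04 to 2.61), STAT3 by -0.066 (-2.92 to 2.79), STAT5A by 0.18 (-1.84 to 2.20) and JAK2 by 0.22 (-2.41 to 2.85), each with an adjusted p of 1 from limma. JAK1 had the narrowest interval, from -1.33 to 1.39 around a difference of 0.029. Every interval held 0 and reached beyond a doubling either way, so the arrays do not show that the lines express these genes alike. The p-values set the difference between the lines against the spread of arrays within a line, described in the methods as biological duplicates. The 2 arrays of a line also had different scan dates, so culture and scan date cannot be told apart in that spread.

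**Figure D3:**
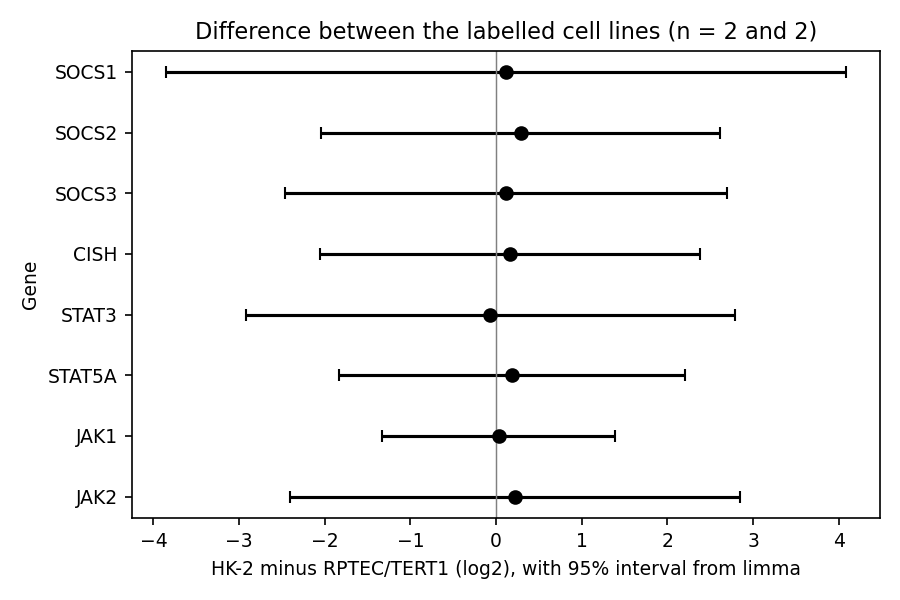
Difference in level between the labelled cell lines (horizontal axis, HK-2 minus RPTEC/TERT1, log2) for the 8 members tested, as the limma estimate (point) with its 95% interval (bar), n = 2 arrays per line. All 8 intervals cross 0, and that of SOCS1, from -3.85 to 4.08, is the widest.

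No member had HK-2 levels that lay wholly above or below those of RPTEC/TERT1 (0 of 8, against 7.18% of all genes tested). The range over the 4 arrays reached at least 2 in SOCS1, STAT3 and JAK2 (3 of 8, against 18.1%). The median range was 1.88 over the members and 1.05 over all genes. Within replicate 1, which shared a scan date, 6 of 8 members were higher in HK-2 by at least 1 (19.6% of all genes) and STAT5A was lower (16.4%). Within replicate 2, the same 6 members, SOCS1, SOCS2, SOCS3, CISH, STAT3 and JAK2, were lower in HK-2 by at least 1 (17.8%) and STAT5A was higher (15.9%). The turn from higher to lower was found in 14.6% of all genes, and the turn from lower to higher in 12.8%. With normexp background correction, the first turn held by this measure in SOCS1, STAT3 and JAK2 (3 of 8, against 10.1% of all genes). In the deposited log2 values it held in these and SOCS3 (4 of 8, against 10.4%). No member took the second turn with either setting, and of all genes 3.48% did with normexp and 4.03% in the deposited log2 values. These are differences between single arrays and have no replicate check.

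**Figure D4:**
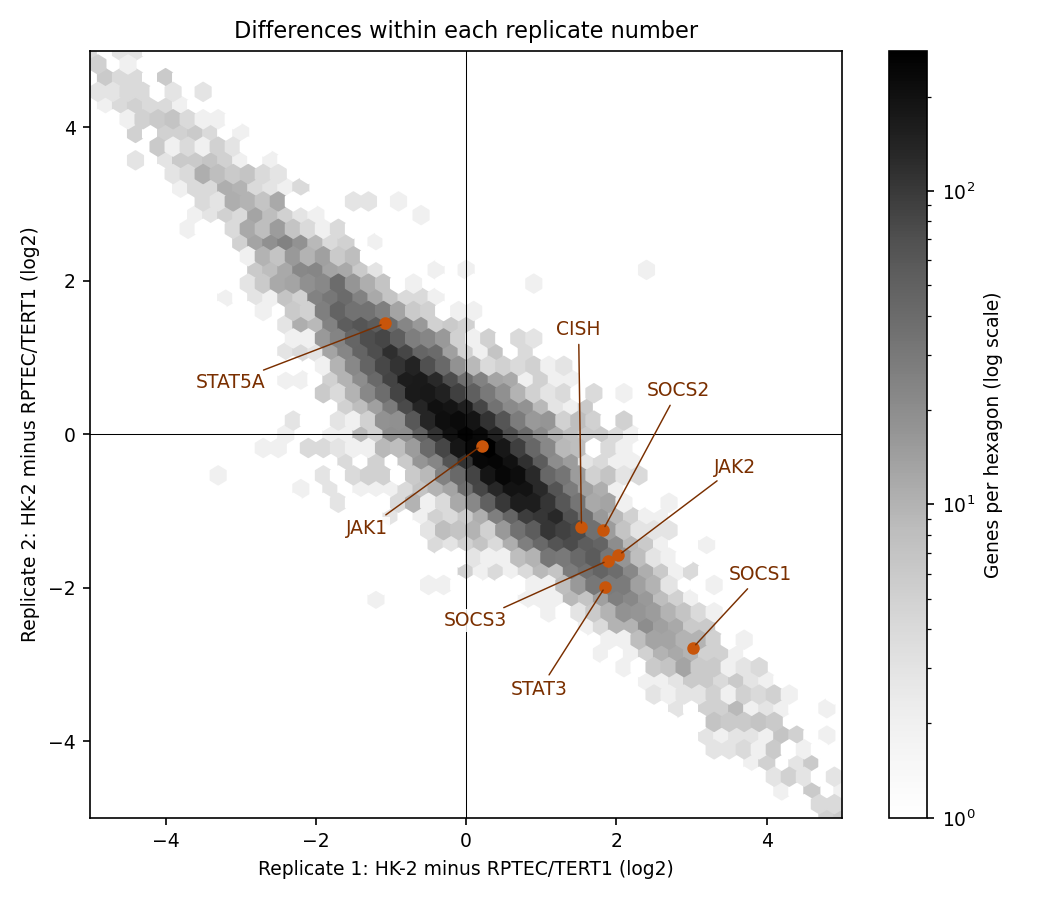
HK-2 minus RPTEC/TERT1 (log2) within replicate 1 (horizontal axis) and within replicate 2 (vertical axis). Grey hexagons count the genes tested, of which 284 of 16473 lie outside the axes, and orange points are the 8 members tested. SOCS1, at 3.02 and -2.78, lies farthest out, JAK1, at 0.20 and -0.15, lies near the centre, and STAT5A, at -1.08 and 1.44, lies in the opposite quadrant, which held with this scaling but not with normexp background correction or in the deposited log2 values.

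Array by array, the members differed little within the pairs that crossed the labels with the scaling used here. The median absolute difference over the 8 members was 0.35 between HK-2-1 and RPTEC-2 (0.22 over all genes) and 0.36 between HK-2-2 and RPTEC-1 (0.30). It was 1.50 between the 2 HK-2 arrays (0.67) and 1.68 between the 2 RPTEC/TERT1 arrays (0.79). A difference of at least 1 was found in 0 of 8 members in either crossed pair (4.9% and 6.79% of all genes), in 6 of 8 between the HK-2 arrays (34%) and in 7 of 8 between the RPTEC/TERT1 arrays (40.4%). It was found in 7 of 8 members between the arrays of replicate 1 (36%) and in 7 of 8 between those of replicate 2 (33.7%). With normexp background correction, SOCS2, STAT5A and JAK2 differed by more than 1 between HK-2-1 and RPTEC-2. Their levels were then -0.28, -0.28 and -0.17 on HK-2-1 and -2.22, -2.37 and -1.28 on RPTEC-2. In the deposited log2 values SOCS2 (-0.89 and -2.12) and STAT5A (-0.90 and -2.34) did so too. The share of all genes that did so with these 2 settings was not computed, so this is not a trait of the members. Over the 4 arrays, 8706 of 16473 genes had a range of at least 1 with the scaling used here. With normexp 13120 did, and in the deposited log2 values 10624. Leaving out HK-2-1, HK-2-2, RPTEC-1 or RPTEC-2 in turn gave differences of either sign for each of the 8 members, from -1.36 to 1.59 for SOCS1 and from -0.33 to 0.39 for JAK1, and called no member.

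The rest of the pathway was read from lists of its parts, none of whose genes was called by limma. The other JAKs and STATs were all tested (6 of 6), and 4 had a range of at least 1 (52.9% of all genes tested did). STAT4, which acts downstream of IL-12, had the widest range, at -5.34 and -2.64 on the HK-2 arrays and -2.89 and -5.37, the floor, on the RPTEC/TERT1 arrays. It was not well above background on HK-2-1 and RPTEC-2, so that the range was at least 2.73. STAT4 was thus low where SOCS1 was high with the scaling used here, but not with normexp or in the deposited log2 values. STAT2, which acts in the type I interferon response, was high on the same arrays as SOCS1, at 3.72, 2.11, 2.05 and 3.54. STAT5B, TYK2 and JAK3 did not turn by at least 1 in both replicates with the scaling used here.

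The other negative regulators, SOCS4 to SOCS7, the PIAS proteins and 4 tyrosine phosphatases, varied less, with a median range of 0.61 over 12 genes tested. The ranges of SOCS4, SOCS5, SOCS6 and SOCS7 were 0.17, 0.41, 0.16 and at least 0.67, against 1.82 to 3.02 for SOCS1, SOCS2, SOCS3 and CISH, and this contrast was not tested. SOCS7 was at the floor on HK-2-1 and RPTEC-2. The median range of the 12 genes rose to 1.58 with normexp (2.14 over the members and 1.71 over all genes) and to 1.03 in the deposited log2 values (1.74 and 1.28). With the scaling used here, ranges of at least 1 were found in PIAS1 (1.73) and the phosphatase PTPN2 (1.16), 2 of 12 against 52.9% of all genes. With normexp 8 of 12 had such a range (13120 of 16473 genes), and in the deposited log2 values 6 of 12 (10624 of 16473). No gene of the list turned by at least 1 in both replicates, except PIAS1 with normexp (higher to lower, in 10.1% of all genes).

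Of 28 cytokine receptor chains, 21 were tested, and 17 of these had a range of at least 1 (52.9% of all genes). CNTFR, IL7R, IL20RA, GHR, PRLR and CSF2RA were not well above background on any array. IL2RG, the common γ chain, varied most (5.02), at 0.51 and -2.66 on the HK-2 arrays and 2.36 and -2.36 on the RPTEC/TERT1 arrays, and was thus higher on both arrays of replicate 1. IL22RA1, a chain of the IL-22 receptor, followed (at least 3.83), at the floor on HK-2-1 and RPTEC-2 and at -1.54 and -2.63 on HK-2-2 and RPTEC-1. In 7 receptors (14.6% of all genes) the level was higher in HK-2 by at least 1 in replicate 1 and lower by at least 1 in replicate 2, as for SOCS1. These were IL6ST, which encodes gp130, the leptin receptor LEPR, the decoy receptor IL13RA2, the interferon receptor chains IFNAR1, IFNGR1 and IFNGR2, and CSF3R, and with normexp or in the deposited log2 values OSMR took the place of IFNAR1. IFNGR2, for example, had levels of 1.35, -1.18, -1.12 and 1.23 on HK-2-1, HK-2-2, RPTEC-1 and RPTEC-2. IL13RA2 was at the floor on HK-2-2 and RPTEC-1, so that its turn is a difference from the floor. IL22RA1 and IL20RB took the opposite turn with the scaling used here (12.8% of all genes). Neither did by this measure with normexp (3.48% of all genes) or in the deposited log2 values (4.03%).

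Among 20 cytokines that signal through JAKs, 11 were tested and 9 had a range of at least 1 (52.9% of all genes). CSF3, the granulocyte colony-stimulating factor, varied most, at -1.86 on HK-2-1 and -1.28 on RPTEC-2 and at the floor on the other 2 arrays, where it was not well above background, so that its range was at least 4.09. IL11, a gp130 cytokine, had the next widest range (3.44) and ran the other way, at -2.47 and 0.68 on the HK-2 arrays and 0.44 and -2.76 on the RPTEC/TERT1 arrays. IL6, CTF1, CLCF1 and CSF3 turned as SOCS1 did, though CLCF1 not by the full step with normexp or in the deposited log2 values and IL6 not with quantile normalization. IL6 had levels of 2.44, 0.50, 1.36 and 2.16 in the same order of arrays. CTF1, like CSF3, was at the floor on HK-2-2 and RPTEC-1, so that its turn is a difference from the floor. IL4, IL13, TSLP, IL20, IFNB1, IFNG and PRL were not well above background on any array.

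Of 16 genes listed as STAT targets, 13 were tested and 8 had a range of at least 1, near the share of all genes (52.9%). SERPINA3, an acute phase protease inhibitor, varied most (5.50), at 0.43 and -4.86 on the HK-2 arrays and -5.07 and 0.21 on the RPTEC/TERT1 arrays, and CEBPD, an acute phase transcription factor, came next (2.99), at 3.32, 3.82, 1.97 and 4.96. SERPINA3 was thus high on the arrays where SOCS1, SOCS3 and STAT3 were high, and CEBPD was lowest on RPTEC-1. MYC, which drives growth, was the target that turned the other way under every scaling tried, at 1.19, 3.41, 3.48 and 0.99. LBP, CXCL10 and CCL26 were not well above background on any array.

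**Figure D5:**
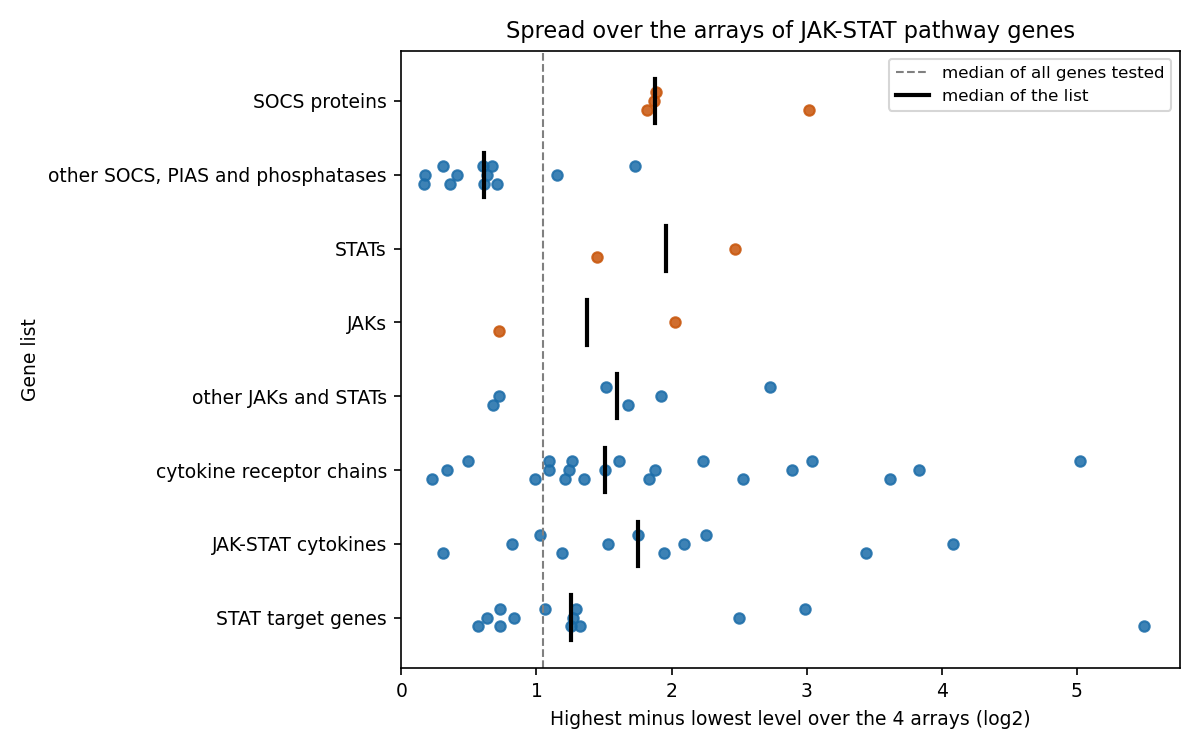
Range over the 4 arrays (horizontal axis, highest minus lowest level, log2) of each gene tested in 8 lists, with the members in orange and other pathway genes in blue. Black bars mark the median of a list and the dashed line the median of all genes tested (1.05). The other SOCS, PIAS and phosphatase genes, with a median of 0.61, lie mostly to its left.

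The genes whose levels followed those of a member most closely over the 4 arrays, each gene centred on its own mean, were found for the members of widest and narrowest range. For SOCS1 these were BAG1 (Euclidean distance 0.088) together with TMEM61 and HSD11B1, which were at the floor on HK-2-2 and RPTEC-1, so that their distance depends on where the floor was set. For JAK1 they were ATG16L2 (0.042), AFMID (0.043) and SLC27A3 (0.045). With 4 arrays, many genes can lie this close.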

How the data were processed

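Cy3-labelled RNA of 4 samples was hybridised to Agilent 4x44K v2 one-colour arrays (probe positions on GRCh37). The authors deposited each array's scanner output, read with Feature Extraction 9.5.3.1, whose processed signal is a background-corrected intensity. They also deposited a table of log2 values for the same arrays (medians 8.33, 7.14, 6.75 and 6.72), which served as an alternative and whose normalization the labels and methods leave unstated. From the intensities, the level was computed as log2 of the processed signal over the array's 75th percentile (393, 748, 488 and 429 for HK-2-1, HK-2-2, RPTEC-1 and RPTEC-2), with a floor of -5.37 set after scaling. Control spots and spots marked as outliers (1.24% to 1.85%) were left out. Spots were averaged to probes, and probes well above background on at least 1 array to genes. limma 3.58.1 (R 4.3.3) compared the labelled cell lines over 16473 genes well above background on at least 2 arrays, with Benjamini-Hochberg adjustment at 0.05, and was tested on simulated data. The number of arrays limits the precision.

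Groups and replicate numbers came from the labels. Other backgrounds, scalings, filters, probes, blocks and single arrays left out were tried as alternatives. The members, gene lists and alternatives were chosen with earlier results of these data known. All members were named on every probe, together with the 2 genes of widest range in each pathway list, those on no array well above background, and the 3 genes nearest to the members of widest and narrowest range; other genes named were chosen after their values were seen. Promoters came from RefSeq on GRCh38.p14. Results for some genes of these lists are not reported here.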

Additional observations from a re-analysis of the deposited data

Results flagged for a closer look

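With the scaling used here, in 8 members the difference between the labelled lines had opposite directions in the 2 replicate numbers, with a single array on each side, and the change between replicates was not tested. The HK-2 minus RPTEC/TERT1 difference of replicate 1 exceeded that of replicate 2 by 5.80 for SOCS1, 3.07 for SOCS2, 3.53 for SOCS3, 2.75 for CISH, 3.84 for STAT3, 3.60 for JAK2 and 0.35 for JAK1 on the log2 scale. For STAT5A the same quantity was -2.53. With normexp background correction and in the deposited log2 values, STAT5A was higher and JAK1 lower in HK-2 in both replicate numbers, so that their opposite directions were lost. Over all genes tested, the deviations of same-numbered arrays from the mean of their line had a correlation of -0.810.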

How the results depend on the processing

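No gene and no member was called by limma after adjustment under any alternative. Genes with an unadjusted p under 0.05 numbered 23 of 16473 in the analysis as reported, 4 with normexp background correction, 26 with quantile normalization, 3 with the deposited log2 values, 24 with the brightest probe, 23 of 16794 with outlier spots kept, 241 of 25667 without a filter, 6 of 13787 with genes well above background on all arrays, 5 with the replicate number (also the scan date) as a block, and 12 to 95 with 1 array left out. With the replicate block, 0 genes passed after adjustment. The crossed pairing as a block, chosen after seeing the data, gave 183 unadjusted and 0 adjusted. Differences reversed for SOCS1 (-0.062 with normexp, -0.034 with deposited values), SOCS3 (-0.29 and -0.13), JAK1 (-0.44 and -0.20) and STAT3 (0.030 with normexp), against a median over all genes of 0.36 with normexp, 0.21 with deposited values and 0.017 as reported, and the cause was not tested. Leaving out 1 array gave -1.36 to 1.59 for SOCS1, -0.58 to 1.15 for SOCS2, -0.82 to 1.06 for SOCS3, -0.77 to 1.10 for CISH, -1.30 to 1.17 for STAT3, -0.54 to 0.90 for STAT5A, -0.33 to 0.39 for JAK1 and -0.77 to 1.21 for JAK2. Where 1 array of a line was left, it was assumed to vary like the others. The mean level moved by more than the SD of the 4 arrays, though by less than their range, for 3 members. These were SOCS2 (-2.12 with normexp, -2.16 with deposited values, SD 0.91), STAT5A (-1.56 and -1.67, SD 0.74) and JAK1 (0.85 and 0.94, SD 0.33). As reported their means were -3.82, -2.63 and 1.38. SOCS1, SOCS2, SOCS3, CISH, STAT3 and JAK2 kept HK-2-1 and RPTEC-2 as their 2 highest arrays under the background, scaling, probe and outlier settings. On HK-2-1, however, SOCS2, CISH, JAK2 and STAT5A read -0.28, -0.22, -0.17 and -0.28 with normexp. As reported they read -3.01, -1.80, -1.34 and -3.09. STAT5A became highest on HK-2-1 with normexp and in the deposited log2 values, so for dim members these 2 settings are a weak check of that array's place. Dim signals limit SOCS2 most, and also STAT5A on HK-2-1 and RPTEC-2. There the STAT5A signals of 46.3 and 39.3 were below those of SOCS2 (48.7 and 50.1).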
